A study of Mus musculus with 103 samples.

Results

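The hippocampus of wild-type mice was compared between 4 and 2 months of age, an interval of young adult maturation. The libraries were chosen by their sample labels, genotype WILD with an age of 4 or of 2 months, and the rule selected 16 of the 103 libraries of the series, 8 mice at each age. All of these mice were male C57BL/6J animals that carried no transgene, and each library was made from the poly(A) RNA of the flash-frozen hippocampus of 1 mouse. Expression was measured as transcripts per 1000000 (TPM), a scale on which every library sums to 1000000, and 21555 of the 48526 genes in the table had a mean of at least 0.5 TPM at either age and were tested. Another 30 mice of the same ages from 4 transgenic lines, which share no library with the wild-type mice, were set beside them: hemizygous amyloid mice (HET_TASTPM, 4 mice at each age), homozygous amyloid mice (HO_TASTPM), mice with an APP transgene alone (TAS10) and tau mice (TAU). The transgenes of these lines are driven by the neuronal Thy1 promoter or, in TAU mice, by the Camk2a promoter, so their values are a second comparison of ages and not one of transgene-free tissue.

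The rodent dentate gyrus keeps a niche of radial glia-like stem cells that divide and give rise to granule neurons throughout adult life, and both division and the number of immature neurons decline steeply in the young adult. Over the same period oligodendrocytes still differentiate from their precursors and form myelin, and the genes of axon outgrowth, among them tubulins of the growing neurite, are turned down as circuits settle. RNA from the whole hippocampus averages these cells with mature neurons, astrocytes, microglia and vessels, so that fewer cells of a type and less RNA per cell cannot be told apart in any result below.

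The lanes on which the libraries were sequenced were not balanced between the ages. Of the 2-month libraries 1 was in lane 4 and 7 were in lanes 5 to 8, whereas 7 of the 4-month libraries were in lanes 1 to 4 and 1 was in lane 7, and within these 16 libraries age and lane can hardly be told apart. A lane number here is the number in the library's name, and it covers more than 1 sequencing run (20 libraries of the series carry lane number 1). An abundant transcript that differed with it was mt-Atp8, a subunit of the ATP synthase encoded in the mitochondrial genome (chromosome M of GRCm38, 7766 to 7969). Its expression ranged from 18360 to 44950 TPM at 2 months (median 22010) and from 25640 to 69960 TPM at 4 months (median 66430), and the lowest 4-month value belonged to the mouse of lane 7. In the other 87 libraries of the series, of every line and age, mt-Atp8 had a median of 64170 TPM in lanes 1 to 4 (48 libraries) and 23660 TPM in lanes 5 to 8 (39 libraries). The 4-month mouse of lane 7 lay within the range of the 2-month mice, 2 of which, both of lane 6, had 44790 and 44950 TPM. The pseudogene Gm9843, a copy of the ribosomal fusion gene Fau, stood at 26.6 TPM in lanes 1 to 4 and at 429 TPM in lanes 5 to 8 of these 87 libraries (medians), and the 4-month mouse of lane 7 had 427 TPM of it. The 2-month mouse of lane 4 had 494 TPM and was not set apart from the 2-month mice of the other lanes.

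**Figure D1:**
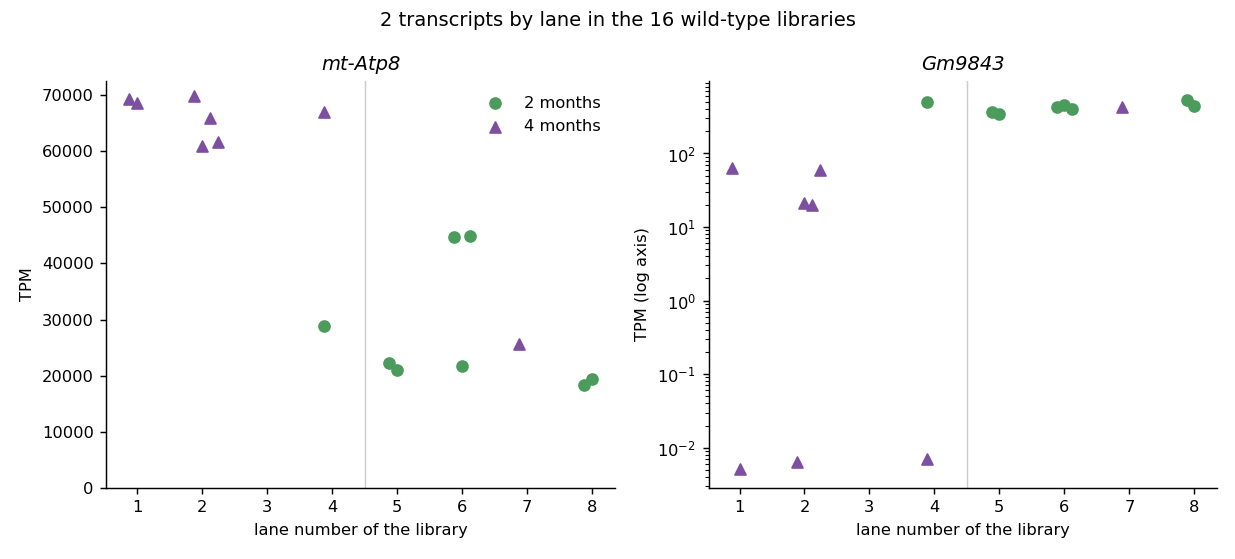
Expression of mt-Atp8 (left, linear axis) and Gm9843 (right, log axis) in TPM against the lane number of each of the 16 wild-type libraries, with circles for 2 months and triangles for 4 months, shifted sideways where they share a lane. The 4-month mouse of lane 7 lies with the 2-month mice in both panels (25640 and 427 TPM), and the 2-month mouse of lane 4 lies with the other 2-month mice.

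Markers of hippocampal neurons were present in both groups. Prox1 of granule neurons had a median of 20.4 TPM at 2 months and 25.3 at 4 months, and Snap25 of all neurons 1634 and 1613 TPM. Wfs1, of the list of granule and pyramidal neurons, went the other way, with medians of 41.5 and 31.7 TPM. Of the list of cortex, thalamus and striatum, Drd1 was at most 6.78 TPM in any mouse, but Tbr1 had medians of 30.4 and 22.5 TPM. None of the 19 tested genes of that list passed between ages, and its median log2 difference (4 minus 2 months) was -0.09. In the 30 mice of the 4 lines its median was 0.36, with 2 of the 19 below 0 (13 in wild-type mice). The list of granule and pyramidal neurons had a median of -0.29 there, with 22 of 22 below 0. In wild-type mice that list had a median of 0.11, with 7 below 0. The part of neighbouring tissue in each library was not tested. The choroid plexus, which borders the hippocampus, was present in a few libraries, since its transthyretin gene Ttr reached 6449 TPM in 1 mouse at 2 months and 5538 TPM at 4 months, against medians of 102 and 38.9 TPM. Mitochondrial transcripts took 21.8% to 29.4% of the TPM at 2 months and 26.6% to 31.5% at 4 months, and since the scale is closed, a larger mitochondrial share lowers every other value.

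Between 2 and 4 months 85 genes rose (0.394% of those tested) and 484 fell (2.25%), with adjusted p below 0.05. The median difference of all genes was -0.03 on the log2 scale and 54.9% of genes were below 0. The genes that fell were protein coding in 457 of 484 cases, and those that rose in 53 of 85. Leaving out 1 mouse at a time gave 33 to 271 genes higher and 176 to 983 lower, the highest counts being those without the 4-month mouse of lane 7. The 8 mice of each age lay apart without overlap for 7 genes that were higher (0.0325%) and 90 that were lower (0.418%) at 4 months.

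These counts changed with the scale and with lane as a term. When TPM were rescaled to nuclear transcripts of at least 500 bases, which moved the median difference of all genes by 0.074, 50 genes rose (0.232%) and 34 fell (0.158%), and quantile normalization gave 69 (0.32%) and 89 (0.413%). With the trend over transcript length removed the counts were 39 (0.19%) and 36 (0.175%). Of the 484 genes that fell on the deposited scale, 34 passed after rescaling and 86 after quantile normalization, and of the 85 that rose, 48 and 55 did. When all 24 groups of line and age were fitted together with lane number as a term, 0 genes were higher by limma and 4 were lower (0.0186%), Gpr17, Atp5o, Slc27a4 and Snrnp27, the last 2 named after their values were seen, with 2223 genes at an unadjusted p below 0.05. With lanes 1 to 4 against lanes 5 to 8 as the term, 1 gene was higher (0.00464%) and 2 were lower (0.00928%), Gpr17 and Slc27a4. Slc27a4, a fatty acid transporter, and Snrnp27, a splicing protein, had lower means at 4 months, 20.5 against 27.65 TPM and 55.7 against 79.1 TPM. Across genes the wild-type differences of the 16 libraries and of the fit with lane number had a Pearson r of 0.84. The SE of Gpr17 was 0.0709 in the 16 libraries and 0.0954 with lane number. How far the smaller counts come from lost precision was not tested. Of the 484 genes that fell, 452 (93.4%) were also lower at 4 months in the 30 mice of the 4 lines, against 52.9% of all genes, and 54 of them passed the test there. In these 30 mice the median of the cortex, thalamus and striatum list was 0.36 and that of granule and pyramidal neurons -0.29, as given above. The lanes of these 30 mice leaned the same way (4 of 16 libraries of 2 months and 10 of 14 of 4 months were in lanes 1 to 4), and with lane as a term 380 (78.5%) were lower, against 50.2% of all genes. Of the 85 that rose, 70 (82.4%) were also higher in the 4 lines, against 47.1% of all genes, and with lane as a term 59 (69.4%), against 49.8%.

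Within lanes only 1 mouse of the other age was available. In lanes 5 to 8 the 4-month mouse lay below all 7 mice of 2 months for 169 of the 484 genes that fell (34.9%, all genes 14.2%) and above them for 26 of the 85 that rose (30.6%, all genes 5.52%). In lanes 1 to 4 the 2-month mouse lay above all 7 mice of 4 months for 451 of the 484 (93.2%, all genes 20.4%) and below them for 72 of the 85 (84.7%, all genes 20.6%). These calls were made from the same mice, so the shares are a description. The 2-month mouse of lane 4 had 28930 TPM of mt-Atp8 and 493.9 TPM of Gm9843, within the ranges of the 2-month mice of lanes 5 to 8. The 4-month mice of lanes 1 to 4 had at least 60940 TPM of mt-Atp8 and at most 63.53 TPM of Gm9843. Lane number did not match this mouse to them on these transcripts, so the shares in lanes 1 to 4 do not separate age from that difference.

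The lane difference was measured on its own in the 87 libraries outside the comparison, within their groups of line and age. There 1042 genes (4.83%) were higher and 1382 (6.41%) lower in lanes 1 to 4 than in lanes 5 to 8. Of the 484 genes that fell with age in wild-type mice, 300 (62.0%) were among the 1382, and 49 of the 85 that rose (57.6%) were among the 1042. This lane difference is given below for the genes on which the results turn.

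**Figure D2:**
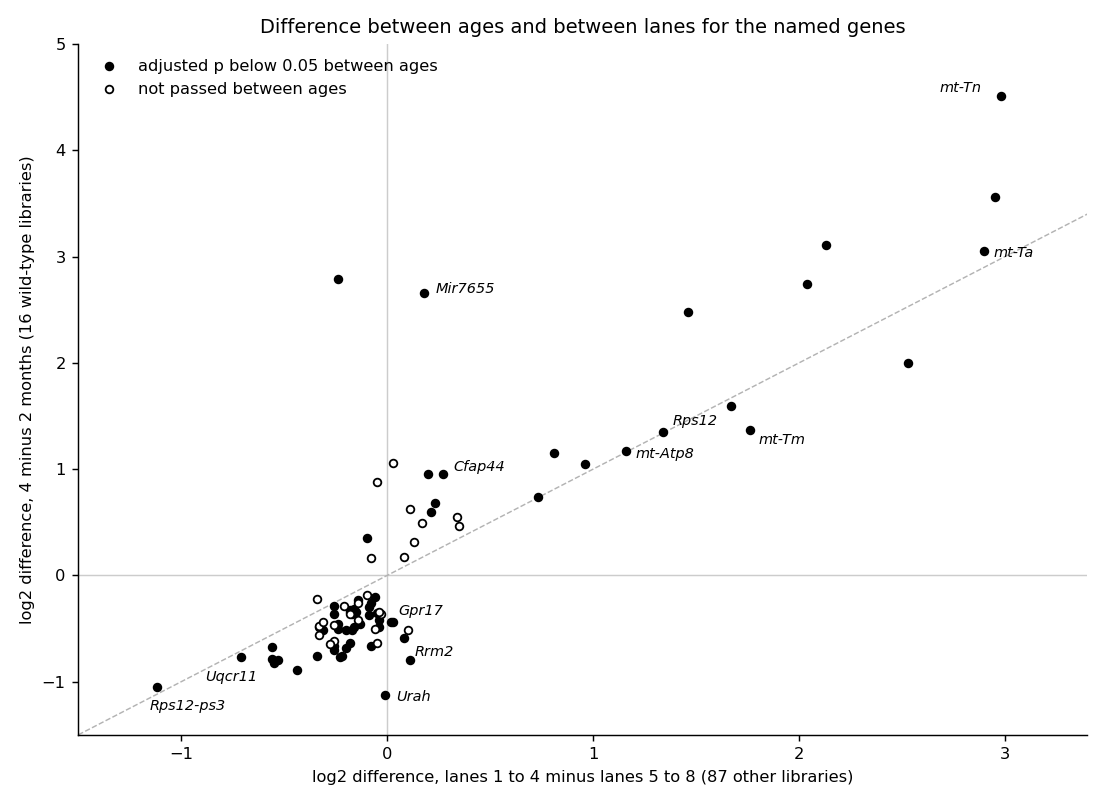
Log2 difference between 4 and 2 months in the 16 wild-type libraries (vertical axis) against the log2 difference between lanes 1 to 4 and lanes 5 to 8 in the 87 other libraries (horizontal axis) for the genes named in the text, Gm9843 and Mrpl23-ps1 lying off the plot. Filled points passed the test between ages, open points did not, and the dashed line marks equal differences. Rps12 (1.35 and 1.34) and mt-Atp8 (1.17 and 1.16) lie on it, whereas Gpr17 (-0.44 and 0.02) and Rrm2 (-0.59 and 0.08) lie near a lane difference of 0.

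Among genes of dividing cells 2 fell, Rrm2 and Pcna. Of the cell cycle list 24 of 26 members were tested, 19 were below 0 (all genes 54.9%) and the median was -0.14 (all genes -0.03). After rescaling, and with lane number fitted across the 24 groups, 0 of the 24 passed. Rrm2, the small subunit of the ribonucleotide reductase that makes the building blocks of DNA in S phase, had 1.41 to 2.34 TPM at 2 months (median 1.89) and 0.743 to 1.45 TPM at 4 months (median 1.14), so that only the highest 4-month mouse reached the range of the 2-month mice. It fell to 0.578 of its 2-month mean (log2 difference -0.59, SE 0.128, adjusted p = 0.0266), and in the other 87 libraries the lanes differed by 0.08 (SE 0.101). The 4-month mouse of lane 7 had 0.984 TPM, within the 4-month range. Rrm2 also fell in the 4 transgenic lines (-0.55, adjusted p = 0.0247), where it passed with lane as a term (-0.69, adjusted p = 0.0442). In wild-type mice it did not pass after rescaling (adjusted p = 0.0632), with lane number fitted across the 24 groups (-0.69, adjusted p = 0.119) or with lanes 1 to 4 against 5 to 8 (-0.65, adjusted p = 0.18). Pcna, the clamp that holds the DNA polymerase on its template, had 47.7 to 69.3 TPM at 2 months and 38.6 to 56.0 TPM at 4 months, with a log2 difference of -0.36 (SE 0.0869, adjusted p = 0.0384). Its highest 4-month value was that of the lane 7 mouse, the other 7 lay at or below 45.6 TPM, it passed in 4 of the 16 fits that left out 1 mouse, and the lanes of the 87 libraries differed by -0.26 (adjusted p = 3.29e-07). Pbk, a kinase of mitosis, and Ccnb1, the cyclin of entry into mitosis, had log2 differences of -0.48 and -0.42 and did not pass (adjusted p = 0.155 and 0.176). Hmgb2, a chromatin protein abundant in dividing neural progenitors, went from 5.26 to 3.24 TPM (adjusted p = 0.0629), and H2afz, a histone variant, fell by 0.20.

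The sequences upstream of Rrm2 and Pcna are shown because genes of the cell cycle are known to carry CCAAT boxes, the element bound by NF-Y, close to their starts. They are the 250 bases before the RefSeq start (build GRCm38.p6), 5′ to 3′ on the strand of the gene, with the motif CCAAT, or ATTGG where it lies on the other strand, in capitals. Rrm2 is on the plus strand at chr12:24708004-24708253 and Pcna on the minus strand at chr2:132253181-132253430.
Rrm2: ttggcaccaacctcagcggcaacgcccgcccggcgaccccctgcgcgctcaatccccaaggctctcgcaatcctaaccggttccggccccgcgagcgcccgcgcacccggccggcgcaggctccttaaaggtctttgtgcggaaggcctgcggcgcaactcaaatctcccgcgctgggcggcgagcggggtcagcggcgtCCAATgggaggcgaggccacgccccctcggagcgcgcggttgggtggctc
Pcna: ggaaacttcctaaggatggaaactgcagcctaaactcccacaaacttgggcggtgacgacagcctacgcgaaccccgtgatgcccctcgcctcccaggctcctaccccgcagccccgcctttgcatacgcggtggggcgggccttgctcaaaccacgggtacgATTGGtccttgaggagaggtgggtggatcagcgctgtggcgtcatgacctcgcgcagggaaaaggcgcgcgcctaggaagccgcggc
Each holds 1 match, which begins 50 bases before the start in Rrm2 and 87 bases before it in Pcna. The motif was present on either strand in 17 of the 21 cell cycle promoters that could be matched (81.0%), in 7 of 13 of the adult neurogenesis list (53.8%) and in 33.8% of 32851 RefSeq promoters of this length. These matches describe the letters of the window and not binding.

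**Figure D3:**
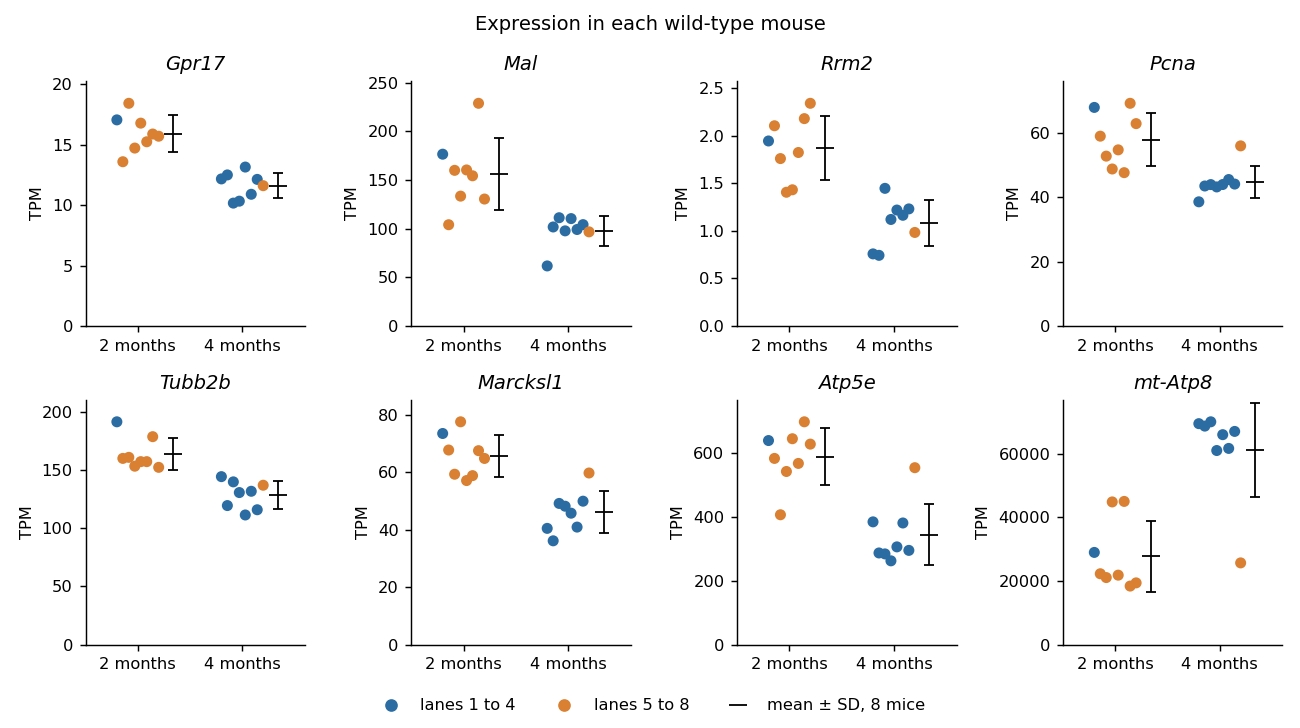
Expression in TPM of 8 genes in each of the 8 wild-type mice of 2 months and the 8 of 4 months, coloured by lane, with mean and SD beside them. For Gpr17, Mal, Rrm2 and Tubb2b the 4-month mouse of lane 7 lies with the other 4-month mice. For Pcna, Marcksl1, Atp5e and mt-Atp8 (56.0, 59.7, 555 and 25640 TPM) it lies in the range of the 2-month mice.

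Among genes of adult neurogenesis few passed. Of 24 members 22 were tested, and 19 of them were below 0 (all genes 54.9%) with a median of -0.20. Of the 22, 2 fell (all genes 2.25%), of which Tubb2b is described here, with no overlap between the mice of the ages. Tubb2b, a beta tubulin of immature and migrating neurons, had 152.5 to 192 TPM at 2 months (median 159) and 112 to 145 TPM at 4 months (median 131). Its log2 difference was -0.35 (SE 0.0636, adjusted p = 0.0162), with a lane difference of -0.05 (SE 0.0633) in the 87 libraries. In the 4 lines it did not pass (-0.32, adjusted p = 0.102). The difference was 0.05 in hemizygous amyloid mice, while each of the other lines had a lower mean at 4 months. Fabp7, a fatty acid binding protein of radial glia and astrocytes, had 93.8 to 197 TPM at 2 months and 70.1 to 123 TPM at 4 months and did not pass (-0.56, adjusted p = 0.0604), with a lane difference of -0.33 (adjusted p = 0.0292). With lane fitted across all groups the median of the list was -0.27, and none of its members passed there or after rescaling.

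Axon growth and the cytoskeleton of developing neurons gave the most calls among neuronal lists. All 20 members were tested, 18 were below 0 with a median of -0.25, and 6 fell (all genes 2.25%). After rescaling 1 of the 20 passed, and with lane number fitted across the 24 groups 0 did. Tuba1a, the main alpha tubulin of growing neurons, had 862 to 1034 TPM at 2 months (median 990.5) and 679 to 823 TPM at 4 months (median 742), and fell to 0.778 of its mean with no overlap (log2 difference -0.36, SE 0.0517, adjusted p = 0.0148). The lanes of the 87 libraries differed by -0.17 (SE 0.038, adjusted p = 0.00124) in this gene. Tuba1a also fell in the 4 lines (-0.26, adjusted p = 0.0116), where it did not pass with lane as a term (-0.14, adjusted p = 0.184). Marcksl1, an actin-binding protein of growth cones, had 57.1 to 77.6 TPM at 2 months and 36.1 to 59.7 TPM at 4 months (-0.51, SE 0.093, adjusted p = 0.0162). Its highest 4-month value was that of lane 7, within the 2-month range, and the other 4-month mice lay at or below 49.9 TPM. The lanes of the 87 libraries differed by -0.17 (SE 0.098). In the 4 lines Marcksl1 fell as well (-0.56, adjusted p = 0.0302), and with lane as a term there it did not pass (-0.52, adjusted p = 0.173). Fabp5, a fatty acid binding protein of neurons and glia, fell from a mean of 246 to 177 TPM, but the lane 7 mouse had 240 TPM and the lanes differed by -0.33 (adjusted p = 1.26e-06). Tubb5, a beta tubulin of proliferating and immature cells, fell by 0.33, with a lane difference of -0.18 (adjusted p = 0.00116), and differed by -0.06 in the 4 lines. Tuba1a and Tubb2b share sequence with other tubulin genes (77.0% and 43.1% of their 31-mers occur in other genes), so their reads could have been divided in more than 1 way. Tnc, a matrix glycoprotein of the stem cell niche, was the only call among the 18 tested genes of the perineuronal net and brain matrix (all genes 2.25%), from 1.37 to 2.21 TPM at 2 months to 0.868 to 1.35 TPM at 4 months without overlap (adjusted p = 0.0484). It passed in 4 of the 16 fits that left out 1 mouse, and its lane difference was 0.03 (SE 0.0912). Tnc did not pass after rescaling (adjusted p = 0.115), with lane number fitted across the 24 groups (0.215) or in the 4 lines (-0.27, 0.327).

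Gpr17, of the oligodendrocyte lineage, was 1 of the 4 genes that passed with lane number as a term. Gpr17 (chromosome 18 of GRCm38, 31942997 to 31949636) encodes a G protein-coupled receptor that is expressed by committed precursors just before they myelinate and is switched off in mature cells. Its expression was 13.6 to 18.4 TPM at 2 months (median 15.8) and 10.2 to 13.1 TPM at 4 months (median 11.9), so that every 4-month mouse lay below every 2-month mouse, the lane 7 mouse with 11.6 TPM included. Gpr17 fell by 27.0% (log2 difference -0.44, SE 0.0709, adjusted p = 0.0148), passed with lane number fitted across the 24 groups (-0.46, adjusted p = 0.0402) and after rescaling (-0.36, adjusted p = 0.0468), and had a lane difference of 0.02 (SE 0.0546) in the 87 libraries. In the 4 transgenic lines it fell by 0.37 (SE 0.071, adjusted p = 0.0112), and with lane as a term there the difference was -0.33 (adjusted p = 0.113). Enpp6, a choline phosphodiesterase of newly forming oligodendrocytes, had 3.75 to 5.93 TPM at 2 months and 2.03 to 4.04 TPM at 4 months and fell too (-0.49, adjusted p = 0.0381), with a lane difference of -0.16 (SE 0.135). Enpp6 passed in 6 of the 16 fits that left out 1 mouse. These were the 2 calls among 19 tested of the precursor list, 16 of which were below 0 with a median of -0.16 (of all genes 2.25% fell and 54.9% were below 0). After rescaling, and with lane number fitted across the 24 groups, 1 of the 19 passed.

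Of the mature myelin list 2 of 19 tested members fell (all genes 2.25%), 16 were below 0 and the median was -0.27. After rescaling, and with lane number fitted across the 24 groups, 0 of the 19 passed. Mal, a proteolipid of compact myelin, had 104 to 229 TPM at 2 months (median 157) and 61.8 to 111 TPM at 4 months (median 100.5), a log2 difference of -0.66 (SE 0.142, adjusted p = 0.0259), and the lane 7 mouse had 96.8 TPM. The lane difference of Mal was -0.26 (SE 0.117). Gsn, an actin-severing protein of myelinating oligodendrocytes, fell from 35.0 ± 4.94 to 24.8 ± 3.27 TPM (SD, n = 8). Cnp and Ugt8a, enzymes of the myelin sheath and of its galactolipids, had differences of -0.36 each and did not pass. The summed TPM of the list ranged from 3474 to 6449 at 2 months and from 3103 to 4560 at 4 months, which overlap, and its median was -0.26 in the 4 lines, where none of its members passed. The lines were not alike. Mean Ugt8a went from 64.9 to 38.2 TPM in TAU and from 32.0 to 21.7 TPM in HET_TASTPM mice. It went from 25.85 to 32.45 TPM in HO_TASTPM and from 23.3 to 24.6 TPM in TAS10 mice. Mal had a lower mean at 4 months in each line, the largest being 298 to 157 TPM in TAU mice.

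**Figure D4:**
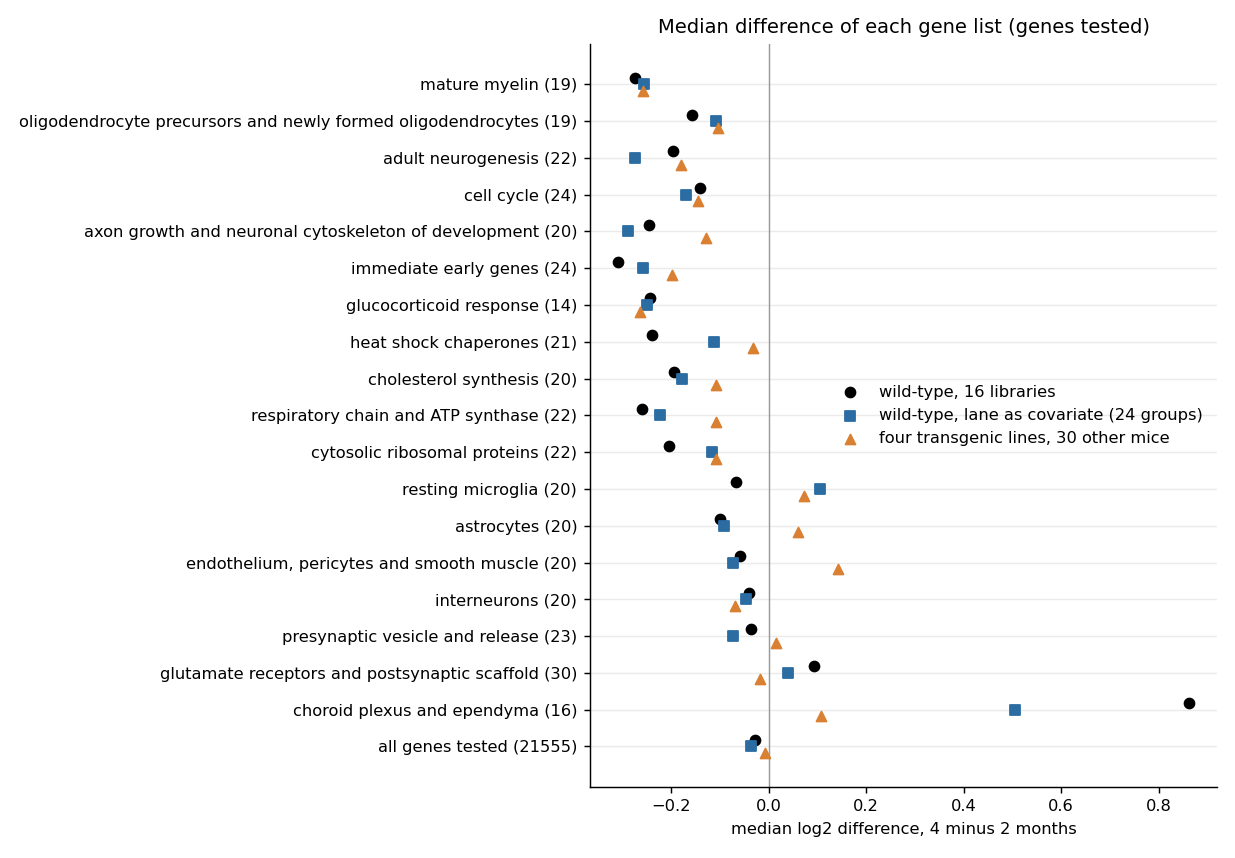
Median log2 difference between 4 and 2 months over the tested genes of each list, in the 16 wild-type libraries (circles), in wild-type mice with lane number fitted across 24 groups (squares) and in 30 mice of 4 transgenic lines (triangles), with the number of genes tested in brackets. Mature myelin lies at -0.27, -0.26 and -0.26, and the choroid plexus and ependyma list at 0.86, 0.51 and 0.11.

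Subunits of the respiratory chain formed the list with the most calls. Of 22 tested genes 10 fell (all genes 2.25%) and 21 were below 0 (all genes 54.9%), with a median of -0.26. With lane number fitted across the 24 groups 1 of the 22 passed. Atp5e, the epsilon subunit of the ATP synthase (chromosome 2, 174461072 to 174464105), had 407 to 699 TPM at 2 months (median 606) and 263 to 555 TPM at 4 months (median 301), where the highest value was that of the lane 7 mouse and the other 7 lay at or below 385 TPM. Its log2 difference was -0.80 (adjusted p = 0.0154) and the lanes of the 87 libraries differed by -0.53 (adjusted p = 1.35e-07). Atp5o, another subunit of the ATP synthase, passed with lane number fitted across all groups (-0.34, adjusted p = 0.0271) and not with lanes 1 to 4 against 5 to 8 (-0.29, adjusted p = 0.194). Its lane 7 mouse had 472 TPM, within the 2-month range, and its lane difference was -0.31 (adjusted p = 4.57e-08). Cyc1, the cytochrome of complex III, did not pass with lane number (-0.26, adjusted p = 0.0807) and had a lane difference of -0.16 (adjusted p = 0.00108). Uqcr11 and Uqcr10, small subunits of complex III, Cox17, a copper chaperone of complex IV, and Cox6a2, a subunit of complex IV, fell by 0.66 to 0.82, and for the first 3 of these the lanes differed by -0.34 to -0.56. In the 87 libraries 14 of the 22 genes of the list were lower in lanes 1 to 4, with a median of -0.16, and after rescaling 3 of the 22 passed between ages. In the 4 lines the median was -0.11 and none of the 22 passed.

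Of the 13 protein-coding genes of the mitochondrial genome 6 were below 0, with a median of 0.03, and mt-Atp8 was the only call (log2 difference 1.17, SE 0.238, adjusted p = 0.0195). Its lane difference was 1.16 (SE 0.109), and with lane fitted across all groups the difference between ages was 0.36 (adjusted p = 0.569). mt-Nd4l, a subunit of complex I, had 9604 to 23350 TPM at 2 months and 22200 to 26110 TPM at 4 months and did not pass (adjusted p = 0.106), and 98.9% of its 31-mers also occur in the nuclear copy Gm10222. mt-Cytb of complex III and mt-Nd5 of complex I had differences of -0.22 and 0.16 and did not pass.

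Short RNAs and genes with copies were prominent among the largest rises. Among the 14 genes with the largest rise were 7 mitochondrial transfer RNAs, of which mt-Tn (asparagine) went from 0 to 49.6 TPM at 2 months (median 8.33) to 19.1 to 162 TPM at 4 months (median 137), and mt-Ta (alanine) from 4.00 to 110 TPM to 38.2 to 290 TPM. The lane 7 mouse was the lowest 4-month mouse for both, and the lanes of the 87 libraries differed by 2.98 and 2.90. Mir7655 was listed at 0 in all 2-month mice and had up to 11.4 TPM at 4 months, and Mir6918 was likewise listed at 0 at 2 months. Across all genes the median difference was 0.39 for those whose longest transcript has up to 100 bases, -0.10 between 1000 and 2000 bases and 0.09 above 8000 bases, so that differences followed transcript length.

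Rps12, a protein of the small ribosomal subunit, rose from 86.7 to 166 TPM at 2 months (median 102) to 116 to 409 TPM at 4 months (median 295), 2.66-fold in the mean, while its copy Rps12-ps3 on chromosome 19 fell from a median of 532 to 261 TPM. The 2 can share reads, and the stretch below is shown because it is found letter for letter in both. It holds bases 251 to 310 of the Rps12-201 transcript of chromosome 10, counted from the start codon, and lies within a run of 274 bases that the transcript and its copy have in common.
Rps12 and Rps12-ps3: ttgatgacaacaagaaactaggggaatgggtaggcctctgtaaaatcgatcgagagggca
No capitals are used, as no base differs. The sum of gene and copy was 656 ± 64.2 TPM at 2 months and 572 ± 63.0 TPM at 4 months (SD, n = 8), and the share of the sum given to Rps12 went from a median of 16.5% to 54.9%, being 17.5% in the 4-month mouse of lane 7. The lanes of the 87 libraries differed by 1.34 in Rps12 and by -1.12 in Rps12-ps3. Fau with Gm9843 and Rpl27 with Rpl27-ps3, a ribosomal gene and its copy in each pair, behaved likewise, with the gene up and the copy down between ages, and so did Mrpl23, of the mitochondrial ribosome, with Mrpl23-ps1. Since the reads of a gene and its copy could have been divided between them in more than 1 way, all 4 pairs are uncertain as single genes, and so are other named genes that share sequence, such as C4b (48.3% of its 31-mers occur in C4a), Ly6c1 (46.8% in other genes) and Rps6 (45.0% in Rps6-ps4). The copies and Fau were named after their values were seen.

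The other genes with the largest decrease had mixed roles. Urah, a hydroxyisourate hydrolase, had 0.749 to 3.29 TPM at 2 months and 0 to 1.72 TPM at 4 months (-1.13, adjusted p = 0.0484), Rab7b, a small GTPase of endosomes, 1.20 to 2.71 and 0.585 to 1.52 TPM, and Nts, the peptide neurotensin, 11.7 to 20.6 and 5.53 to 13.8 TPM. The lane differences of these 3 in the 87 libraries (-0.01, 0.11 and -0.22) did not pass, and Rab7b had 0.601 TPM at 8 months and 0.542 TPM at 18 months (means). Bola2, of iron-sulfur cluster transfer, and Gng13, a G protein gamma subunit, fell with lane differences of -0.44 and -0.56, and Rnd1 and Ttc9b fell by 0.77 and 0.70.

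Genes of acute responses gave few calls (of all genes 2.25% fell and 54.9% were below 0). Of 24 immediate early genes, which neurons switch on within minutes of activity, 20 were below 0 with a median of -0.31 and 1 fell, Ier5 (16.96 to 39.2 TPM at 2 months, 10.1 to 17.9 TPM at 4 months, adjusted p = 0.0455), while Egr1 did not pass. After rescaling, and with lane number fitted across the 24 groups, 0 of the 24 passed. The median of this list over lanes was 0.09 in the 87 libraries. Tsc22d3, a target of the glucocorticoid receptor that dampens inflammation, had 40.5 to 90.3 TPM at 2 months (median 57.9) and 33.4 to 38.0 TPM at 4 months (median 36.9) without overlap (-0.64, SE 0.116, adjusted p = 0.0162). It was the only call of 14 genes of the glucocorticoid response, whose median was -0.24. Mt2, a metallothionein of the same list, had 419.5 to 867 TPM at 2 months and 312 to 435 TPM at 4 months, did not pass (adjusted p = 0.0643), and fell in the 4 lines (-0.44, adjusted p = 0.0309). Of these values the highest of Tsc22d3, Cdkn1a and Dnajb1 at 2 months came from 1 mouse of lane 8. Heat shock chaperones had 19 of 21 below 0, a median of -0.24 and no call, and their median lane difference was -0.14.

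Cholesterol synthesis fell in 3 of 20 genes (all genes 2.25%), with 18 below 0 (all genes 54.9%) and a median of -0.19. Hmgcs1, the synthase that feeds the pathway, had 104 to 150 TPM at 2 months and 97.3 to 115 TPM at 4 months (-0.30, adjusted p = 0.029), and Sqle and Cyp51, which act on squalene and lanosterol, fell by 0.23 and 0.37. The lane differences of the 3 were -0.09 to -0.14 and did not pass. After rescaling, and with lane number fitted across the 24 groups, none of the 20 passed. In the 4 lines the median was -0.11 and none passed.

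Glial and vascular markers changed in few genes. Among resting microglia 2 of 20 fell (all genes 2.25%), with a median of -0.07. With lane number fitted across the 24 groups 0 of the 20 passed and the median was 0.11. C1qb and C1qc, subunits of the complement protein C1q that tags synapses for removal in development, had means of 56.15 ± 4.04 and 52.4 ± 5.08 TPM at 2 months and 44.2 ± 3.67 and 43.4 ± 3.35 TPM at 4 months (SD, n = 8), and C1qa, the other subunit, went from 52.0 to 45.8 TPM and did not pass. In the 4 lines C1qb differed by 0.07 (adjusted p = 0.85). Mlc1 of astrocyte end-feet and Ly6c1 of endothelium were the only calls of their lists of 20 genes (all genes 2.25%), at -0.34 and -0.46. Neither list had a call after rescaling or with lane number fitted across the 24 groups. The medians of the astrocyte and vessel lists were -0.10 and -0.06 in wild-type mice and 0.06 and 0.14 in the 4 lines. C4b, a complement component made by astrocytes and oligodendrocytes, and Il33, an alarmin of oligodendrocytes and astrocytes, were named after their values were seen, and both rose without overlap: C4b had a median of 12.9 TPM and at most 15.2 TPM at 2 months, and a median of 19.7 TPM and at most 26.3 TPM at 4 months (0.60, adjusted p = 0.0148), and Il33 had 21.7 to 28.3 and 29.3 to 37.7 TPM (0.35, adjusted p = 0.0173). The lanes differed by 0.21 (SE 0.123) in C4b and by -0.10 (SE 0.0952) in Il33, and neither passed in the 4 lines. Srebf1, a transcription factor of fatty acid synthesis also named afterwards, rose from 19.9 ± 4.79 to 31.6 ± 5.085 TPM (SD, n = 8) and rose in the 4 lines (0.57, adjusted p = 0.0364).

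Genes of mature neurons and their synapses gave few or no calls. None of 30 genes of glutamate receptors and their scaffold passed (median 0.09), nor of 23 of vesicle release (-0.04), 16 of GABA-A receptors and chloride transport (0.01), 18 of neurofilaments and the axon initial segment (-0.00) or 22 of granule and pyramidal neurons (0.11). In the 4 lines the medians of these lists were -0.02, 0.02, 0.01, 0.16 and -0.29. There 2 of the 18 neurofilament and axon genes rose (all genes 0.241%). All 22 genes of granule and pyramidal neurons were below 0 there, against 7 in wild-type mice. Of 20 interneuron genes 1 fell (all genes 2.25%), Pvalb of fast-spiking cells, from 45.1 to 95.3 TPM at 2 months to 43.0 to 62.7 TPM at 4 months (adjusted p = 0.0495). The difference of Pvalb was 0.15 in the 4 lines. After rescaling or with lane number fitted across the 24 groups 0 of the 20 interneuron genes passed.

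The choroid plexus and ependyma list had no call and all 16 of its members above 0, with a median of 0.86. Choroid plexus was present in more libraries of 4 months, where Ttr had 2377, 5193 and 5538 TPM in 3 mice and at most 49.7 TPM in the others, than of 2 months, where it had 6449 TPM in 1 mouse and at most 165 TPM in the others. Ccdc153, Rsph1 and Foxj1 were highest in the same 3 mice of 4 months. The members of the list from motile cilia, Ccdc153 (7.48 ± 3.51 and 13.7 ± 6.44 TPM), Rsph1 and the cilia regulator Foxj1, had differences of 0.55 to 0.88, and with lane fitted across all groups the median of the list was 0.51. Cfap44 and Ccdc180, cilia and flagella genes outside the list that were named after their values were seen, rose by 0.95 each, Cfap44 from 5.46 to 8.60 TPM at 2 months to 9.98 to 22.9 TPM at 4 months without overlap. In the 5 other mice of 4 months Cfap44 had 9.98 to 15.1 TPM, above every mouse of 2 months. The summed TPM of the list was 132.5 to 6882 at 2 months (median 221) and 104 to 6613 at 4 months (median 156), and the part of ventricular tissue in these 2 genes was not tested. In the 4 lines their differences were -0.06 and -0.05.

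At the later ages, 8 months (8 wild-type mice) and 18 months (7 mice), the genes with lower means at 4 months took different courses. The mean of Gpr17 was 15.9, 11.6, 8.42 and 7.26 TPM at 2, 4, 8 and 18 months, and the highest mouse of 8 months (9.75 TPM) lay below the lowest of 4 months (10.2 TPM). Tnc (1.61, 1.05, 0.794 and 0.774 TPM) and Fabp7 (142, 94.9, 73.4 and 78.5 TPM) had lower means at 8 than at 4 months with ranges that overlap. Rrm2 stood at 1.87, 1.08, 1.25 and 0.991 TPM, and Mal at 156, 97.9, 109 and 109 TPM, at about the 4-month level thereafter, whereas Enpp6 was at 4.60 TPM at 8 months and 4.95 TPM at 18 months, against 4.80 TPM at 2 months. Of the genes that rose, C4b reached 60.3 TPM (44.1 to 82.1) and Il33 52.3 TPM (40.2 to 67.6) at 18 months, above every mouse of 4 months. These ages were not tested here, and 5 of the 8 libraries of 8 months and 6 of the 7 of 18 months were in lanes 1 to 4.

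**Figure D5:**
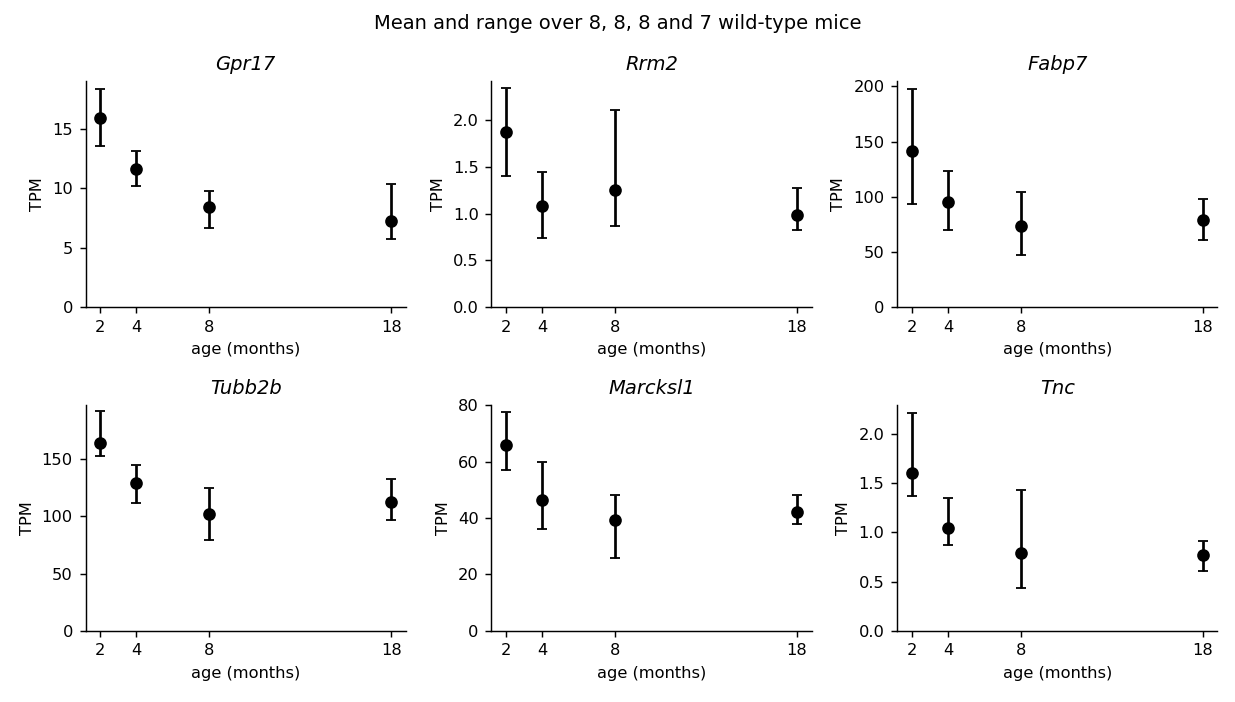
Mean expression in TPM (points) and range over mice (bars) of 6 genes in wild-type mice at 2, 4, 8 and 18 months, drawn on a linear age axis, with 8, 8, 8 and 7 mice. Gpr17 has means of 15.9, 11.6, 8.42 and 7.26 TPM, and Rrm2 is at 1.87 TPM at 2 months and 1.08 TPM at 4 months.

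The wild-type difference was also set against that of the 4 lines. The hemizygous amyloid mice, whose lanes were spread otherwise (2 of 4 libraries of 2 months and 1 of 4 of 4 months in lanes 1 to 4), gave 9 genes higher (0.0418%) and 1 lower (0.00464%), and the 4 lines together gave 52 higher (0.241%) and 200 lower (0.928%). No gene passed a test of whether its change with age differed between wild-type mice and the 4 lines (0 of 21555 by limma). In it 1269 genes had an unadjusted p below 0.05. The test had no lane term, and it does not show that the changes were the same. Across genes, which are not independent replicates, the difference in wild-type mice and in the 4 lines had a Pearson r of 0.26, and of 0.09 with lane fitted in the lines. In the 46 mice of wild-type and the 4 lines together, with line and lane as terms, 72 genes rose (0.334%) and 255 fell (1.18%). This fit contains the 16 wild-type libraries and is no independent test of them. In it 21 of the 92 named genes passed. Rrm2 (-0.66, adjusted p = 0.000838), Gpr17 (-0.40, adjusted p = 0.00375), Pcna (-0.24, adjusted p = 0.00591), Mt2 (-0.49, adjusted p = 0.00913), Tuba1a (-0.18, adjusted p = 0.0143), Marcksl1 (-0.47, adjusted p = 0.0274), Hmgb2 (-0.50, adjusted p = 0.0276) and Mal (-0.60, adjusted p = 0.0297) fell, and Srebf1 (0.58, adjusted p = 0.0212) and Il33 (0.43, adjusted p = 0.0243) rose. Of the respiratory chain Uqcr11 (-0.40, adjusted p = 0.0225), Atp5e (-0.32, adjusted p = 0.035) and Atp5o (-0.20, adjusted p = 0.0461) fell, as did Bola2 (-0.43, adjusted p = 0.0405) and the copies Rpl27-ps3 and Mrpl23-ps1. Of the mitochondrial genome mt-Nd4l (0.45, adjusted p = 0.00248), mt-Nd5 (0.23, adjusted p = 0.0483) and mt-Ta (1.47, adjusted p = 0.016) rose, as did Mrpl23 (0.90, adjusted p = 0.0136). Polr2d, a subunit of RNA polymerase II named after its values were seen, fell in this fit (-0.30, adjusted p = 0.000312), in wild-type mice (33.2 ± 3.05 to 23.9 ± 2.04 TPM, SD, n = 8, without overlap) and in the 4 lines (-0.39, adjusted p = 0.00187), with a lane difference of -0.24 (adjusted p = 9.84e-05).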

How the data were processed

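As the methods state, the authors trimmed stranded poly(A) reads (pairs of 100 bases) with Trim Galore, quantified them with Salmon against Ensembl GRCm38, summed transcripts to genes with tximport and deposited TPM. Counts per gene were not used here, so the depth and counting error of each library are unknown. Line, age and lane were read from the labels, which do not pair mice. Groups were compared on log2(TPM + 0.5) by limma 3.58.1 under R 4.3.3 (1 mean per group, empirical Bayes with a mean-variance trend), and p was adjusted by Benjamini-Hochberg over all 21555 genes, threshold 0.05. Log2 differences are on the log2(TPM + 0.5) scale, which understates changes of low genes. Each mouse is 1 replicate. The text names the 14 genes with the largest rise and decrease (mean of at least 1 TPM, no predicted genes or pseudogene copies), members from the 4 smallest p of each of 34 gene lists, and genes marked as named later. The comparison, members and lists were chosen with earlier results of these data known. Lane differences were fitted in the 87 other libraries with 1 mean per group of line and age. Of these groups 1 line, and a few genes that the rule names, are not reported here. Coordinates are from GENCODE release M21 (95.2% of tested genes matched), promoters from RefSeq, and 4 rows with garbled names were left as deposited. The procedure was tested on simulated data. Python 3.11.15, pandas 2.3.3 and matplotlib 3.10.9 were used.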

Additional observations from a re-analysis of the deposited data

Results flagged for a closer look

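In groups of 8 mice the highest or lowest mouse was set against Dixon's critical value of 0.526, which chance alone exceeds in about 1 of 20 groups. The 4-month mouse of lane 7 lay far from the other 4-month mice for 18 of the named genes. It was highest for Pcna (56.03 TPM), Atp5e (554.9), Atp5o (472.3), Uqcr11 (533.9), Uqcr10 (602.1), mt-Cytb (18870), Mir7655 (11.45), Rps12-ps3 (545.5), Gm9843 (426.9), Rps6 (701.0), Bola2 (44.02), Gng13 (130.4), Ttc9b (20.07) and Snrnp27 (76.69 TPM). It was lowest for mt-Atp8 (25640 TPM), mt-Tn (19.08), mt-Ta (38.16) and Fau (213.6 TPM). It was the only 4-month library outside lanes 1 to 4, and lane, mouse and library cannot be told apart for it.

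At 2 months 1 mouse of lane 8 was highest for Tsc22d3 (90.31 TPM), Cdkn1a (19.03), Dnajb1 (31.84) and Vip (57.32 TPM), and the other mouse of lane 8 was highest for Rps6 (820.2 TPM). Mice of lane 5 were highest for FO907130.1 (25.03 TPM) and Kcna1 (31.87 TPM), both in 1 mouse, and for Rps12 (166.4 TPM) in the other. A mouse of lane 6 was highest for mt-Th (4.812 TPM) and lowest for Sqle (25.23 TPM), and the mouse of lane 4 was highest for mt-Tw (39.54 TPM). At 4 months a mouse of lane 1 was lowest for Mal (61.75 TPM) and a mouse of lane 2 was highest for Tmem212 (25.47 TPM). The reasons were not tested.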

How the results depend on the processing

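Between 2 and 4 months in wild-type mice 85 genes rose and 484 fell. The numbers of higher and lower genes were 54 and 338 with no filter, 129 and 791 in a fit of all 24 groups, 0 and 4 with lane number added, 1 and 2 with lanes 1 to 4 against 5 to 8 added, 0 and 1 with that term in the 16 libraries, 50 and 34 after rescaling, 69 and 89 after quantile normalization, 39 and 36 with the trend over transcript length removed, and 31 and 261 by an exact rank-sum test. Leaving out each mouse in turn gave 33 to 271 higher and 176 to 983 lower genes. The largest counts were those without the 4-month mouse of lane 7, and without 1 mouse of lane 5 at 2 months they were 227 and 701. Of the 92 named genes 66 passed, and of these 4 passed with lane number, 2 with lanes 1 to 4 against 5 to 8, 24 after rescaling and 34 after quantile normalization. mt-Cytb changed sign with lane number (0.0096), with lanes 1 to 4 against 5 to 8 in all groups (0.030) and in the 16 libraries (0.0067), and C1qa with lane number (0.035), and neither had passed. In the 4 lines the counts of 52 and 200 became 4 and 4 with lane number and 4 and 6 with lanes 1 to 4 against 5 to 8, and in the 46 mice the counts of 72 and 255 became 402 and 1502 without lane and 28 and 120 with lanes 1 to 4 against 5 to 8. Leaving out each hemizygous amyloid mouse gave 9 to 23 higher and 1 to 6 lower genes. The fits with lanes 1 to 4 against 5 to 8, the rescaling, the length trend and the 46 mice were chosen after seeing the data. The causes were not tested. With the series of the mouse numbers as a term the counts were 69 and 392. This series groups mice and pairs none. No paired analysis was possible because the labels number no replicates shared between groups. The depth of the libraries is unknown.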
